A study of Rattus norvegicus with 9 samples.

Results

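The genes described are 9 genes known from neutrophils, S100a8, S100a9, Mmp8, Cxcr2, Trem1, Hp, Fcnb, Csf3r and G0s2, out of 28343 genes in the count table. They were chosen by name after the difference between diabetic and control libraries had been seen, so that difference is described for them here: the standard errors and calls given with it come from the fit over all genes and are no independent test of these 9. All 9 were in the table. The libraries are RNA-seq of cells sorted for CD11b from papain-digested whole retinas of Dark Agouti rats and are labelled as isolated retinal microglia. Diabetic rats (4 libraries, numbered 1, 2, 4 and 5) received streptozotocin, a toxin of the pancreatic beta cell, at 55 mg/kg after 12 hours of fasting, were hyperglycaemic, and had 2 units of insulin at glucose values over 30 mmol/l. Control rats (5 libraries, numbered 1, 3, 4, 5 and 6) received citrate buffer and had normal blood glucose. Injection was at 8 to 10 weeks of age and retinas were taken 4 weeks later. The numbers of rats given match the numbers of libraries, but no label ties a library to 1 animal, so p-values measure the spread between these libraries. RNA was amplified with a SmartSeq kit before Nextera XT library preparation.

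Neutrophils are short-lived phagocytes of the blood that carry CD11b, the integrin used for this sort, and in diabetes leukocytes are known to adhere to the walls of retinal vessels. Their cytosol is rich in calprotectin, the calcium- and zinc-binding dimer of S100A8 and S100A9, and their granules store enzymes and lectins made in a fixed order while the cell matures in the bone marrow. They enter tissue through CXCR2, the receptor for CXC chemokines such as CXCL1 and CXCL2, and depend on G-CSF, which acts through CSF3R.

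Promoter sequences were taken from the RefSeq promoter table of build GRCr8, which held 7 of the 9 genes (all but S100a8 and Hp). The 4 shown belong to S100a9, Fcnb and G0s2, the genes of those 7 whose diabetic libraries all lay above the control libraries, and to Mmp8, which held the most motif matches. Each runs 5′ to 3′ from 250 bases before to 50 after the annotated start, on the gene's own strand. Capitals mark motif matches on either strand. The TATA box was searched for as TATAAA, the motif of C/EBP factors as TTGCNNAA, that of PU.1 as AGGAAGT and that of AP-1 as TGANTCA. The first is S100a9 at chr2:178490573-178490872 (minus strand), then Fcnb at chr3:31800139-31800438 (minus strand), Mmp8 at chr8:13008640-13008939 (plus strand) and G0s2 at chr13:107335899-107336198 (minus strand).
S100a9: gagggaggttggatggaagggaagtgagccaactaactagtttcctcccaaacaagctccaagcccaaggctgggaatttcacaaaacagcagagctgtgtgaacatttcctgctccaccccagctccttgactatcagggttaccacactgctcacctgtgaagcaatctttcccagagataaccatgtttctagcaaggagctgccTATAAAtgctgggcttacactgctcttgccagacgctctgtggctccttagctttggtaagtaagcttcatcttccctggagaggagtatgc
Fcnb: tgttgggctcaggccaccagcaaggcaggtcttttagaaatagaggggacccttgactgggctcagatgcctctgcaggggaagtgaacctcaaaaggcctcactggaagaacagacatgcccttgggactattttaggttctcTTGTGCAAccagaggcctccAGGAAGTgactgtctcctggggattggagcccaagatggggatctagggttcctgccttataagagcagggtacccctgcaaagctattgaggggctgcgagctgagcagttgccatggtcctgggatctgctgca
Mmp8: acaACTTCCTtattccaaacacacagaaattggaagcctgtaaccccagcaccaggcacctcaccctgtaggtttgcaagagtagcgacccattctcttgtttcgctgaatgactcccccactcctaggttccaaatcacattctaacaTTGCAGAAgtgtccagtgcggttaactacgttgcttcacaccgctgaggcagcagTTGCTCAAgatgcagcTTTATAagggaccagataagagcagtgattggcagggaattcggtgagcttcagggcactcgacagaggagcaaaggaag
G0s2: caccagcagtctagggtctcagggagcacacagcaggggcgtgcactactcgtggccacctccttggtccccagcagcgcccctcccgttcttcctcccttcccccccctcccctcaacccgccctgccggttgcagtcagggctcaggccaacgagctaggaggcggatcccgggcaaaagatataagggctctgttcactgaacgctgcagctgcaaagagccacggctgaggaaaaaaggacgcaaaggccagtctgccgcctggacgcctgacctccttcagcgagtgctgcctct
The letters of the TATA box lay on either strand in 3 of the 7 promoters, against 14.2% of 33469 promoters of the same length. In S100a9 they lay on the gene's own strand, from base -42. In Mmp8 (from base -30) and Trem1 (from base -7) they lay on the opposite strand only. The C/EBP letters, named for the factors that drive granule genes during neutrophil maturation, lay in Mmp8 (from bases -101 and -46) and Fcnb (from base -106), 2 of 7 against 10.6%. The same 2 genes held the PU.1 letters (8.41% of all promoters), and 0 of 7 held the AP-1 letters (7.33%). No 2 of these matches overlapped.

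Total counts ran from 9156591 to 11332823 in control and from 6228756 to 9629829 in diabetic libraries, and diabetic 4 was the shallowest. The microglia list of 15 genes summed to 34189 to 39407 CPM in control and 34332 to 36516 CPM in diabetic libraries, where CPM is the usual count scaled to a common library total, here with TMM factors. A count of 0 in this table need not mean that a gene was silent. Of 20 housekeeping genes looked up after the counts had been seen, 6 had fewer than 100 counts in every library, among them Hprt1 with 0 in all 9 libraries and Gapdh with 14 to 71. In a bulk library fewer neutrophils and less RNA per cell cannot be told apart.

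S100a9 and S100a8, the subunits of calprotectin, showed the largest differences of the 9 genes. S100a9 was at 5.57, 4.51, 0.537, 0.214 and 0.773 CPM in controls 1, 3, 4, 5 and 6, and at 37.0, 14.8, 52.9 and 14.9 CPM in diabetic 1, 2, 4 and 5. The groups did not overlap, and controls 1 and 3 stood above the other controls. Controls averaged 2.32 ± 2.52 CPM (SD, n = 5), diabetic libraries averaged 29.9 ± 18.5 CPM (SD, n = 4), and the log2 fold change was 3.61 (SE 1.2). S100a8 had 9, 4, 0, 0 and 0 counts in controls 1, 3, 4, 5 and 6, and 63, 14, 64 and 26 counts in diabetic 1, 2, 4 and 5. Here too the diabetic libraries all lay above the controls, and the 2 controls with any count were those highest in S100a9. The log2 fold change of S100a8 was 4.21 (SE 1.25), and without control 1 it was 5.44. The genes sit on Rnor6 chromosome 2, with S100a8 at 190073815 to 190074354 (plus strand) and S100a9 at 190097554 to 190100276 (minus strand), spans of Ensembl transcripts in the deposited assemblies. S100a9 counts were 5.95 times those of S100a8 in diabetic 1, 10.4 times in diabetic 2, 5.19 times in diabetic 4 and 5.73 times in diabetic 5, against 6.56 times in control 1 and 13 times in control 3, on 9 and 4 counts of S100a8.

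**Figure D1:**
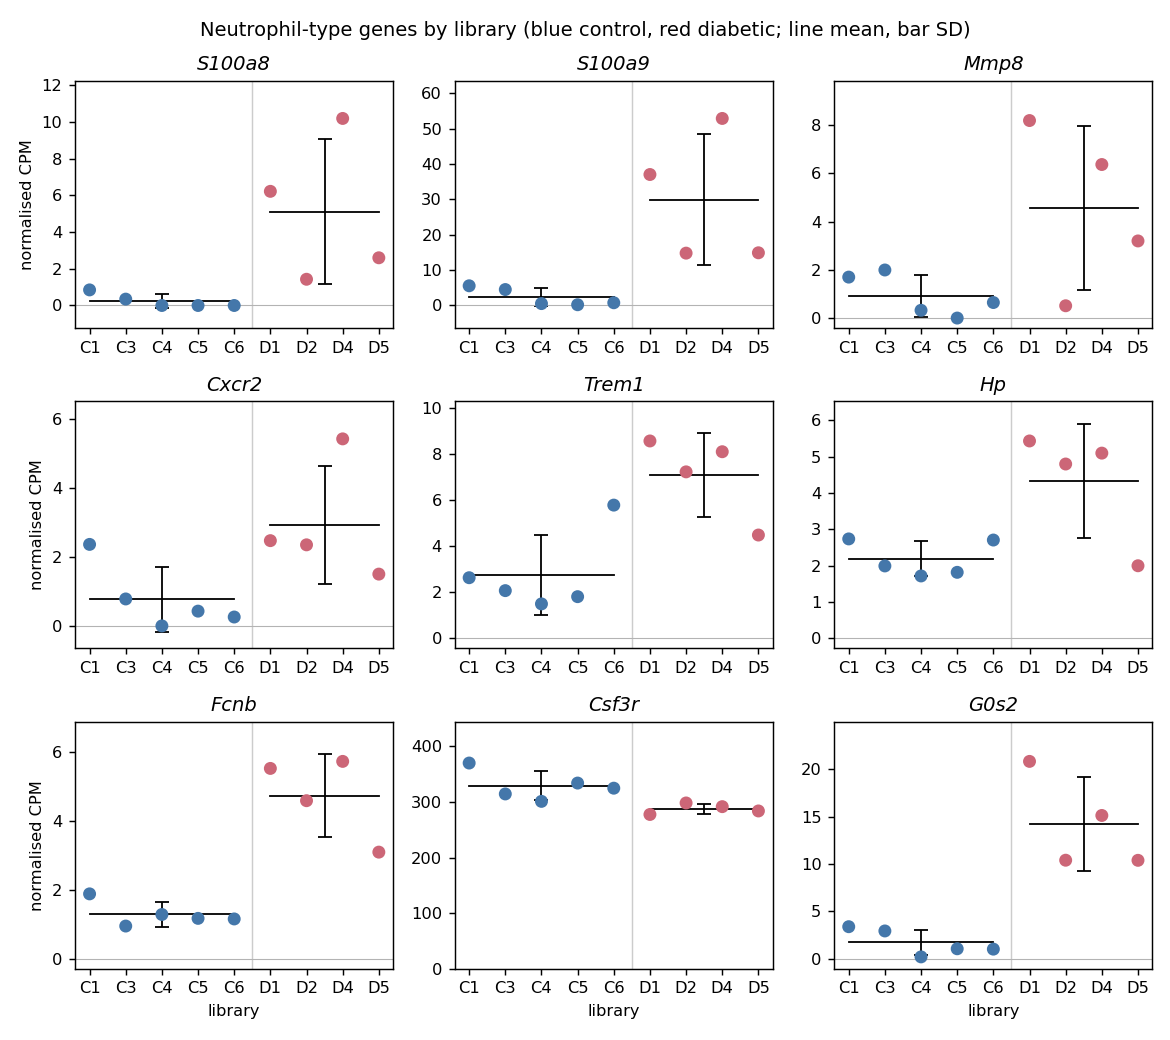
Normalised CPM (y axis, linear, a separate scale in each panel) of the 9 genes in each library (x axis), with 5 control libraries in blue and 4 diabetic libraries in red. Horizontal lines are group means and bars are SD; S100a8, S100a9, Fcnb and G0s2 do not overlap between the groups, and Csf3r is near 300 CPM throughout.

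Granule and secreted proteins came next. Mmp8, the neutrophil collagenase of the secondary granules, was at 1.70, 1.99, 0.322, 0 and 0.644 CPM in controls 1, 3, 4, 5 and 6, and at 8.19, 0.510, 6.37 and 3.20 CPM in diabetic 1, 2, 4 and 5. Diabetic 2 lay within the controls, on 5 counts, and the other 3 diabetic libraries lay above them. Fcnb encodes ficolin B, a lectin of myeloid cells that recognises sugars on microbes. It was at 1.89, 0.954, 1.29, 1.18 and 1.16 CPM in controls 1, 3, 4, 5 and 6, and at 5.53, 4.59, 5.73 and 3.10 CPM in diabetic 1, 2, 4 and 5. Its log2 fold change was 1.86 (SE 0.47), on 9 to 20 counts in a control and 31 to 56 counts in a diabetic library. Hp encodes haptoglobin, which binds free haemoglobin and is stored in neutrophil granules as well as secreted by the liver. It was at 2.74, 1.99, 1.72, 1.82 and 2.71 CPM in controls 1, 3, 4, 5 and 6, and at 5.43, 4.80, 5.10 and 2.00 CPM in diabetic 1, 2, 4 and 5. Diabetic 5 fell within the control range for Hp, and the other 3 did not. The log2 fold changes were 2.22 (SE 1.02) for Mmp8 and 0.97 (SE 0.39) for Hp.

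Among the receptors, Cxcr2 had 25, 9, 0, 4 and 2 counts in controls 1, 3, 4, 5 and 6, and 25, 23, 34 and 15 counts in diabetic 1, 2, 4 and 5. On the CPM scale control 1 (2.36) lay above diabetic 2 (2.35) and diabetic 5 (1.50), so the groups overlapped, and the log2 fold change was 1.85 (SE 0.85), or 2.86 without control 1. Trem1, a receptor that amplifies the response of neutrophils and monocytes to microbial products, was at 2.64, 2.08, 1.50, 1.82 and 5.80 CPM in controls 1, 3, 4, 5 and 6. It was at 8.59, 7.24, 8.12 and 4.50 CPM in diabetic 1, 2, 4 and 5, a log2 fold change of 1.37 (SE 0.47). Control 6 lay above diabetic 5, and S100a9 was at only 0.773 CPM in that control. Control 6 was also the highest library for Il1r2, a decoy receptor of interleukin-1 (12.1 CPM, against 1.42 to 4.51 CPM in the other controls), and for the cell isolation list of immediate-early and stress genes (37760 CPM, against 4574 to 27343 CPM in the other controls). The part of that state in Trem1 was not tested.

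Csf3r, the receptor of G-CSF, did not share the pattern of the other 8 genes. It was at 370, 314, 301, 334 and 325 CPM in controls 1, 3, 4, 5 and 6, and at 277, 298, 292 and 284 CPM in diabetic 1, 2, 4 and 5. All diabetic libraries lay just below all controls, with a log2 fold change of -0.19 (SE 0.094), and this separation was lost with upper-quartile factors and without normalization factors. Without factors the log2 fold change of Csf3r was -0.081, while the median over all tested genes shifted from 0.0018 to 0.12. Csf3r gave 15990 control and 10403 diabetic counts, so it was read in every library, also where S100a8 had none. Levels of different genes can be set side by side only per length, and the deposited TPM (a transcript abundance scaled by length and library) allows this for 4 of the 9 genes, those with an Ensembl transcript in any assembly. Summed over assembled transcripts at the locus, Csf3r was at 52.2 to 91.5 TPM in control and 16.9 to 62.2 TPM in diabetic libraries. S100a9 was at 0 to 11.7 TPM in control and 2.38 to 103 TPM in diabetic libraries. Its groups overlapped on this scale. Control 1 (11.7 TPM) lay above diabetic 1, 2 and 5 (6.09, 2.38 and 2.50 TPM), and only diabetic 4 (103 TPM) lay above control 1. G0s2 was at 0 to 5.78 TPM in control libraries, at 0.140 TPM in diabetic 2 and at 6.48 to 15.03 TPM in the other 3 diabetic libraries, and S100a8 was above 0 in control 1 (0.144 TPM) and diabetic 1 (6.86 TPM) alone. These sums are uneven for short, thinly covered genes: diabetic 4 was listed at 0 TPM for S100a8 and had 64 counts.

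G0s2 encodes an inhibitor of the lipase that breaks down stored fat and is highly expressed in neutrophils as well as in fat and liver. It had 36, 34, 2, 10 and 8 counts in controls 1, 3, 4, 5 and 6, and 211, 102, 95 and 104 counts in diabetic 1, 2, 4 and 5. Controls averaged 1.73 ± 1.37 CPM (SD, n = 5) and no diabetic library was below 10.4 CPM, so the groups did not overlap, and the log2 fold change was 2.99 (SE 0.81). Controls 1 and 3 were again the highest controls. The gene lies on Rnor6 chromosome 13, 112004140 to 112005052, minus strand, and Csf3r on chromosome 5, 144031402 to 144051600, plus strand.

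Over the 9 genes the median log2 fold change was 1.86, against 0.0018 over all 11748 genes tested, and 8 of 9 were above 0, against 50.3% of all genes. The diabetic libraries all lay above the controls for 4 of the 9, S100a8, S100a9, Fcnb and G0s2, against 4.27% of all genes, and all below for 1, Csf3r, against 4.16%. Of these counts nothing is read, since the genes were chosen on this contrast. All 9 passed the filter on low counts, which asks for about 1.06 CPM in at least 4 libraries, and S100a8 passed through the diabetic libraries alone. By edgeR's quasi-likelihood test 0 of the 9 passed an adjusted p of 0.05 (0.0681% of all genes did, and 0.0426% did as higher), 9 had an unadjusted p below 0.05 (18.9% of all genes did), 5 passed by DESeq2 (3.27%) and 0 by limma-voom (0.0340%). The authors' deposited table lists 5 of the 9 as higher past an adjusted p of 0.05, S100a8, S100a9, Trem1, Fcnb and G0s2, against 1.92% of its 12069 genes, and gives log2 fold changes of 3.08 for G0s2 and 4.31 for S100a8. When 1 library was left out, the diabetic libraries all lay above the controls for 4 to 6 of the 9. The 6 arose without diabetic 5, against 6.98% of all genes in that setting. Trem1 and Hp, for which diabetic 5 overlapped the controls, were added there. Nothing is read from these counts either.

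**Figure D2:**
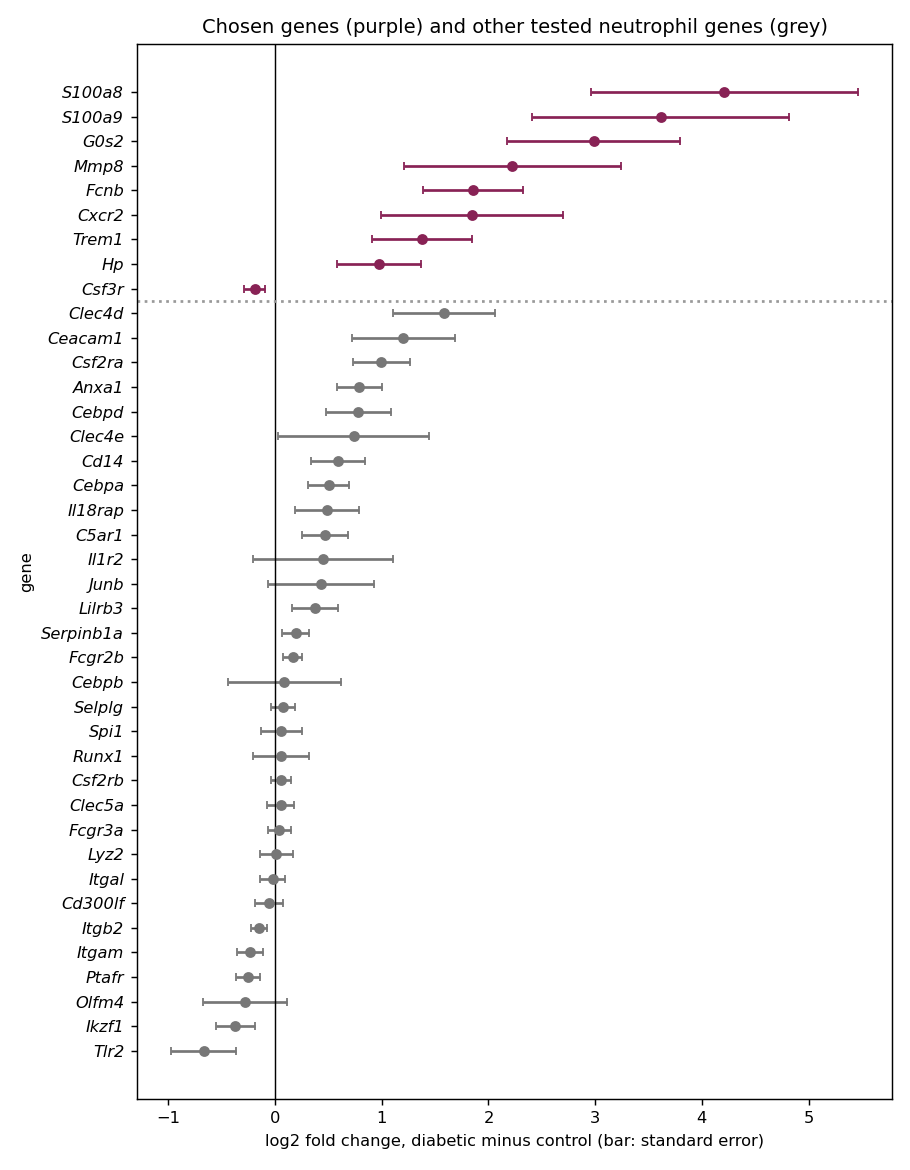
Log2 fold change of diabetic minus control libraries (x axis) with its standard error (bars) for the 9 chosen genes (purple, above the dotted line) and for 31 of the 32 other tested neutrophil genes (grey, 1 not drawn). The chosen genes run from -0.19 (Csf3r) to 4.21 (S100a8), and most of the other genes lie near 0.

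Whether the genes moved together from library to library was examined within the groups. Diabetic 1 and diabetic 4 were the highest pair of diabetic libraries for each of the 8 genes other than Csf3r, and each was the highest for 4 of them. Control 1 was among the highest 2 controls for the same 8 genes and control 3 for 5 of them. Summed over the 8 genes, the level was 94.3 and 109 CPM in diabetic 1 and 4, 46.1 and 42.2 CPM in diabetic 2 and 5, 21.1 and 15.6 CPM in controls 1 and 3, and 5.59, 6.52 and 12.4 CPM in controls 4, 5 and 6. The controls thus differed among themselves. The highest control stayed below the lowest diabetic library, of which nothing is read, since the genes summed were chosen on this contrast. As a description over 9 libraries, the correlation of the deviations of log2 CPM from the group means lay above 0 for 28 of 28 pairs of these 8 genes (median 0.49), against 51.1% of the pairs of these genes with all other tested genes. The closest pairs were S100a8 with S100a9 (0.90), Cxcr2 with G0s2 (0.87) and Mmp8 with S100a9 (0.85), and the loosest was S100a8 with Trem1 (0.14). Trem1 was closest to Hp (0.74), and Hp to Fcnb (0.77). Csf3r gave 7 of 8 pairs above 0, the highest with Cxcr2 (0.78). Values of 1 library share its depth and its mix of cells, and the groups are too small for a test within each. Over all 36 pairs, 35 lay above 0, and 31 to 36 did when 1 library was left out, the fewest without control 1.

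**Figure D3:**
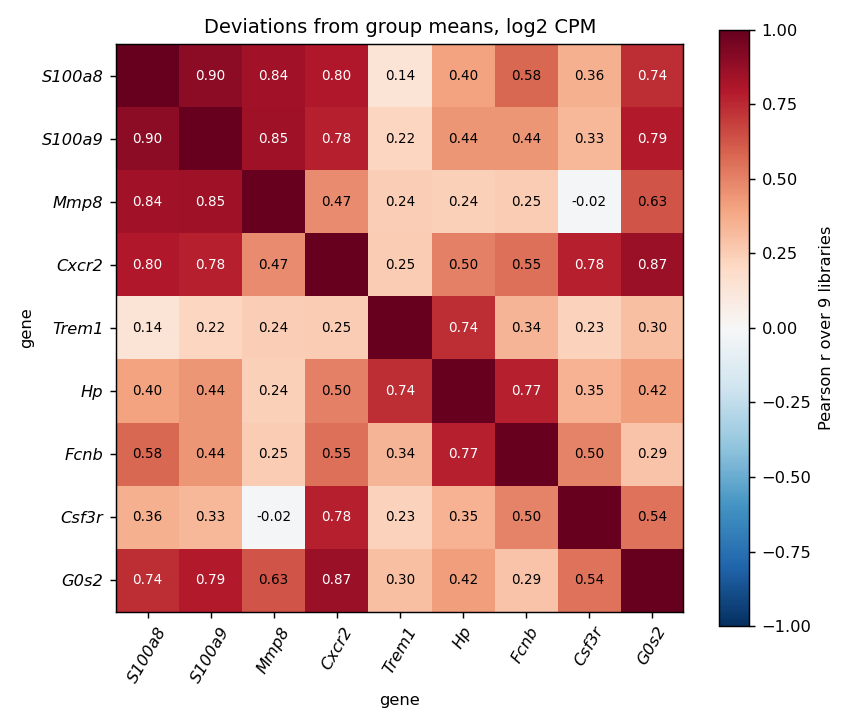
Pearson correlation between each pair of the 9 genes (both axes) over 9 libraries, computed on log2 CPM after the mean of each group was subtracted, with red above 0 and blue below. Pairs among S100a8, S100a9, Mmp8, Cxcr2 and G0s2 run from 0.47 to 0.90. High values also lie outside these pairs, as for Csf3r with Cxcr2 (0.78), Hp with Fcnb (0.77) and Trem1 with Hp (0.74). The lowest value is that of Csf3r with Mmp8 (-0.017).

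The genes most like S100a9 over the 9 libraries, by Pearson correlation of log2 CPM among tested genes outside the 9, were Bloc1s3 (0.98), Mrpl14, Sh3gl1, Lrg1 and Hist1h1c (each 0.97), and S100a8 had 0.97 itself. These correlations hold the group difference on which S100a9 was chosen. Lrg1, a secreted glycoprotein also stored in neutrophil granules, was at 8.02, 6.94, 0.752, 1.28 and 1.03 CPM in controls 1, 3, 4, 5 and 6, and at 23.8, 8.06, 25.3 and 12.4 CPM in diabetic 1, 2, 4 and 5. Diabetic 4 and 1 were its highest libraries and controls 1 and 3 its highest controls, a likeness to S100a9 for which it was named. With group means subtracted, the genes most like S100a9 were Bloc1s3 (0.97), Gemin8 (0.96), Pdcd10 (0.96), Ywhah (0.95) and Timm10 (0.95). None of them is specific to neutrophils. Among all tested genes, S100a8 stood in place 34 by this measure, Mmp8 in place 102, G0s2 in 224 and Cxcr2 in 282. Hp stood in place 2428, Fcnb in 2468, Csf3r in 3435 and Trem1 in 4373 (0.22).

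Other neutrophil genes were then counted from 3 lists of granule and secreted proteins, surface receptors and lineage regulators, 70 genes in all, of which 65 were in the table and 32 were tested. By edgeR's quasi-likelihood test 0 of the 32 passed an adjusted p of 0.05 and 13 had an unadjusted p below 0.05, against 18.9% of all genes. The median log2 fold change was 0.13 and 24 of 32 were above 0. The diabetic libraries all lay above the controls for 3 of the 32 (Anxa1, Cebpa and Csf2ra), against 4.27% of all genes, and all below for 2 (Itgb2 and Tlr2), against 4.16%. Many of the tested genes are shared with microglia and were abundant in all libraries, as were Lyz2 (lysozyme, 1808 and 1822 CPM in control and diabetic libraries), Serpinb1a (an inhibitor of elastase, 75.1 and 85.9 CPM), Selplg (2578 and 2709 CPM), Itgb2 (1275 and 1147 CPM) and Itgam, the gene of CD11b (1265 and 1075 CPM).

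Genes more restricted to neutrophils gave a divided picture. Mpo, Prtn3, Ctsg, Ltf, Lcn2, Bpi, Cd177 and Cxcr1, among them the enzymes of the primary granules and the iron-binding proteins of the secondary granules, were listed at 0 in all 9 libraries, together with 6 other genes of these lists. Elane, the neutrophil elastase, had 0 to 2 counts in a library. Ngp, a secondary granule protein, had 0 to 2 in a library, with 5 over the controls and 4 over the diabetic libraries. As Hprt1 was listed at 0 too, these zeros are given as listed. Camp, the cathelicidin of secondary granules, had 1 count over the controls, and 10, 2, 0 and 1 counts in diabetic 1, 2, 4 and 5. The label of a neutrophil signature is thus given for the genes read here, and no absence is concluded from the listed zeros.

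**Figure D4:**
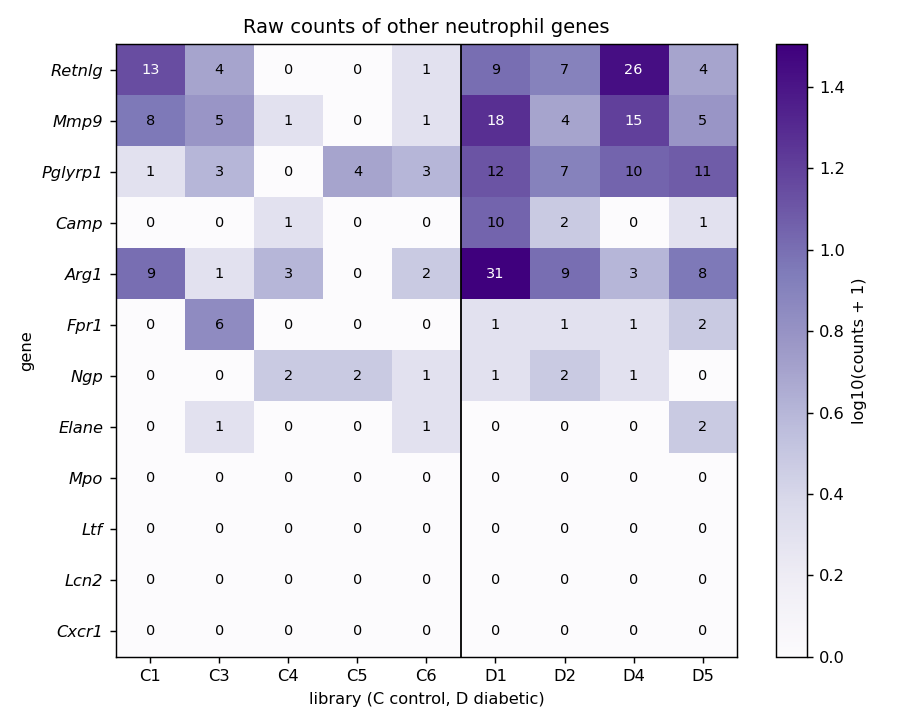
Raw counts (printed in each cell, shading on a log10(counts + 1) scale) of 12 neutrophil genes outside the chosen 9 (rows) in the 5 control and 4 diabetic libraries (columns). Retnlg and Mmp9 are read in diabetic libraries and in controls 1 and 3, and Mpo, Ltf, Lcn2 and Cxcr1 are listed at 0 throughout.

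Retnlg, a resistin-like protein of mature neutrophils, had 13, 4, 0, 0 and 1 counts in controls 1, 3, 4, 5 and 6, and 9, 7, 26 and 4 counts in diabetic 1, 2, 4 and 5. Mmp9, the gelatinase of tertiary granules, had 8, 5, 1, 0 and 1 counts in controls and 18, 4, 15 and 5 counts in diabetic libraries, in the same order. Controls 1 and 3 were the highest controls for both of these genes, as they were for S100a9 and G0s2. Retnlg and Mmp9 did not pass the filter on low counts and were not tested. Pglyrp1, a peptidoglycan-binding granule protein, had 0 to 4 counts in a control and 7 to 12 counts in a diabetic library, and Fpr1, a receptor for bacterial peptides, had 6 counts in control 3 and 0 to 2 in each other library.

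Anxa1, encoding annexin A1, which is plentiful in neutrophils and also made by other myeloid cells, averaged 27.3 ± 5.62 CPM (SD, n = 5) in controls, against 47.2 ± 4.01 CPM (SD, n = 4) in the diabetic group. The log2 fold change, 0.79 (SE 0.21), had an edgeR adjusted p of 0.0620. Csf2ra, a chain of the GM-CSF receptor, averaged 16.7 ± 1.51 CPM (SD, n = 5) in controls, against 33.5 ± 9.62 CPM (SD, n = 4), and its log2 fold change was 1.00 (SE 0.26) with an edgeR adjusted p of 0.0620. Both passed without normalization factors, with upper-quartile factors, without a filter and by DESeq2, and neither passed by limma-voom. Of the regulators, Cebpa, which is needed for the first steps of granulocyte development, was at 47.9 and 67.9 CPM, and Cebpe, which acts late in it, had 2 to 13 counts in a control and 6 to 21 counts in a diabetic library. The most abundant regulators were Junb, Spi1 (the gene of PU.1) and Cebpb, with log2 fold changes of 0.43, 0.059 and 0.086 and edgeR adjusted p from 0.635 to 0.942, and Gfi1 was listed at 0.

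Ligands that draw or mobilise neutrophils varied widely among the controls, and their direction turned with 2 of them. Among 14 ligand genes counted, 8 were tested, 0 passed by edgeR's test, 0 had an unadjusted p below 0.05, and 6 had a log2 fold change below 0, with a median of -0.94. Cxcl1 had 568, 76, 1335, 668 and 1566 counts in controls 1, 3, 4, 5 and 6, and 726, 484, 220 and 560 counts in diabetic 1, 2, 4 and 5. Cxcl2, the other main ligand of CXCR2 here, had 130 to 2933 counts in a control and 330 to 792 in a diabetic library. The most abundant genes of the list, Ccl3, Ccl4 and Il1b, had log2 fold changes of -0.92 (SE 0.96), -1.06 (SE 1.08) and -2.56 (SE 1.68). The summed list was highest in controls 4 and 6 (11532 and 22326 CPM), where the cell isolation list was also highest (27343 and 37760 CPM) and S100a9 was below 1 CPM. It was at 722 to 1728 CPM in controls 1, 3 and 5 and at 1568 to 3859 CPM in diabetic libraries. Without controls 4 and 6, a setting added after the data were seen, 7 of the 8 ligands had a log2 fold change above 0 (median 0.99). Those 2 controls held the highest sums of the list, so leaving them out was bound to raise its summed difference. The turn is given as a description of how far the values rest on these 2 libraries, and nothing more is read from it. In that setting 0 passed by edgeR's test and 3 had an unadjusted p below 0.05, as did 1776 of all genes tested. The share of all genes was not computed there, so nothing is read from the 3. The part of the isolation response in the ligand values was not tested, and Csf3, the gene of G-CSF, was listed at 0.

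For calprotectin and TREM1, the receptors and partners read here numbered 8, of which 6 were tested and 0 passed by edgeR's test. At an unadjusted p below 0.05 by that test there was 1, against 18.9% of all genes. Tlr4, a receptor for calprotectin, had a log2 fold change of 0.014 (SE 0.12). Ager, the gene of RAGE, had 3 to 24 counts in any library. Tyrobp, the adaptor of TREM1 and of microglial receptors, averaged 650 ± 104 CPM (SD, n = 5) in controls and 898 ± 208 CPM (SD, n = 4) in the diabetic group, with an edgeR adjusted p of 0.153. Bsg, the gene of basigin, to which S100A9 binds, and Cd33 were at 320 and 379 CPM and at 274 and 317 CPM. Among the other S100 genes, 7 of 7 tested had a log2 fold change above 0 (median 0.76). By edgeR's test 5 had an unadjusted p below 0.05, against 18.9% of all genes, and 0 passed the adjusted threshold. S100a10, at 17.8 ± 2.41 CPM (SD, n = 5) and 30.8 ± 4.85 CPM (SD, n = 4), had the smallest edgeR adjusted p of these (0.0620). S100a4 was at 50.9 and 79.1 CPM, S100b at 6.33 and 6.70 CPM, and S100a6, at 1.10 and 2.95 CPM, the largest log2 fold change (1.37). On the side of haptoglobin, Cd163, the receptor that takes up its complex with haemoglobin, had a log2 fold change of 1.55 (SE 0.47) with an edgeR adjusted p of 0.0895, and Hmox1, which degrades haem, had one of -0.49 (SE 0.56). Saa4, a serum amyloid A gene, was at 102 and 96.8 CPM.

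Lists of other cells that a CD11b sort or a retinal digest could hold were set beside these genes. No list gene passed an adjusted p of 0.05 by edgeR's test (0 of 123 tested over all 16 lists). By the same test 33 had an unadjusted p below 0.05, against 18.9% of all genes. By DESeq2 15 passed (3.27% of all genes did) and by limma-voom 0 (0.0340%). Border macrophage genes had a log2 fold change above 0 in 11 of 11 tested (median 0.97), with Lyve1 at 206 and 359 CPM, F13a1 at 105 and 211 CPM and Cd163 at 57.3 and 168 CPM, and the list summed to 456 to 961 CPM in control and 825 to 1799 CPM in diabetic libraries. Diabetic 1 and 4 were the highest libraries for that list as well (1799 and 1290 CPM), while among the controls it was highest in control 3 (961 CPM) and low in control 1 (515 CPM). Monocyte genes were divided, with 5 of 8 above 0 and a median of 0.13, and the most abundant, Cx3cr1 and Nr4a1, are also microglial or immediate-early genes. Plac8, shared by monocytes and neutrophils, was at 3.20 ± 1.06 and 8.90 ± 4.92 CPM, and Spn was at 15.2 ± 6.52 and 32.5 ± 2.45 CPM (SD, n = 5 and 4), while Ccr2, which defines classical monocytes, was listed at 0.

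Genes of other blood cells came next. The erythrocyte list of 7 genes summed to 0 CPM in control 3, control 6 and diabetic 1. It summed to 6.23 CPM in control 1, 2.87 CPM in diabetic 4 and 8.67 CPM in diabetic 2. Most of it was Hba1, with Hbb and Alas2 at 0.556 CPM or less in a group. The part of carried-over blood in the values of the 9 genes was not tested. The T, NK and B cell list summed to 4.06 to 11.8 CPM in control and 3.70 to 10.51 CPM in diabetic libraries, with Lck (2.43 and 3.92 CPM), Cd8a (1.88 and 0.668 CPM) and Cd79b (0.850 and 1.14 CPM) its most abundant genes. Of the mast cell, basophil and eosinophil list 3 genes were tested with a median log2 fold change of 0.046. Siglec5 (579 and 597 CPM) and Ccr3 (46.3 and 37.8 CPM) made up nearly all of that list, Fcer1a was at 0.386 and 1.15 CPM, and Cpa3, which marks mast cells and basophils, had 1 count over all libraries. Of the platelet list 5 genes were tested with a median of -0.086, with Itgb3 at 48.6 and 29.3 CPM, Pf4 at 14.3 and 28.9 CPM and Treml1 at 2.83 and 2.69 CPM, and Ppbp had 1 count over the controls and 3 over the diabetic libraries. The microglia list had 14 genes tested, 7 of them above 0, with a median of 0.015 and Csf1r (11106 and 10034 CPM) and C1qb (4142 and 4382 CPM) among its most abundant. The cell isolation list had 18, with a median of -0.11 and Egr1, Dusp1 and Zfp36 at its head, and the photoreceptor list 12, with a median of 0.26 and Gnat1 and Sag among its most abundant. The part of the border macrophage and monocyte genes in the difference of the 9 genes was not tested.

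**Figure D5:**
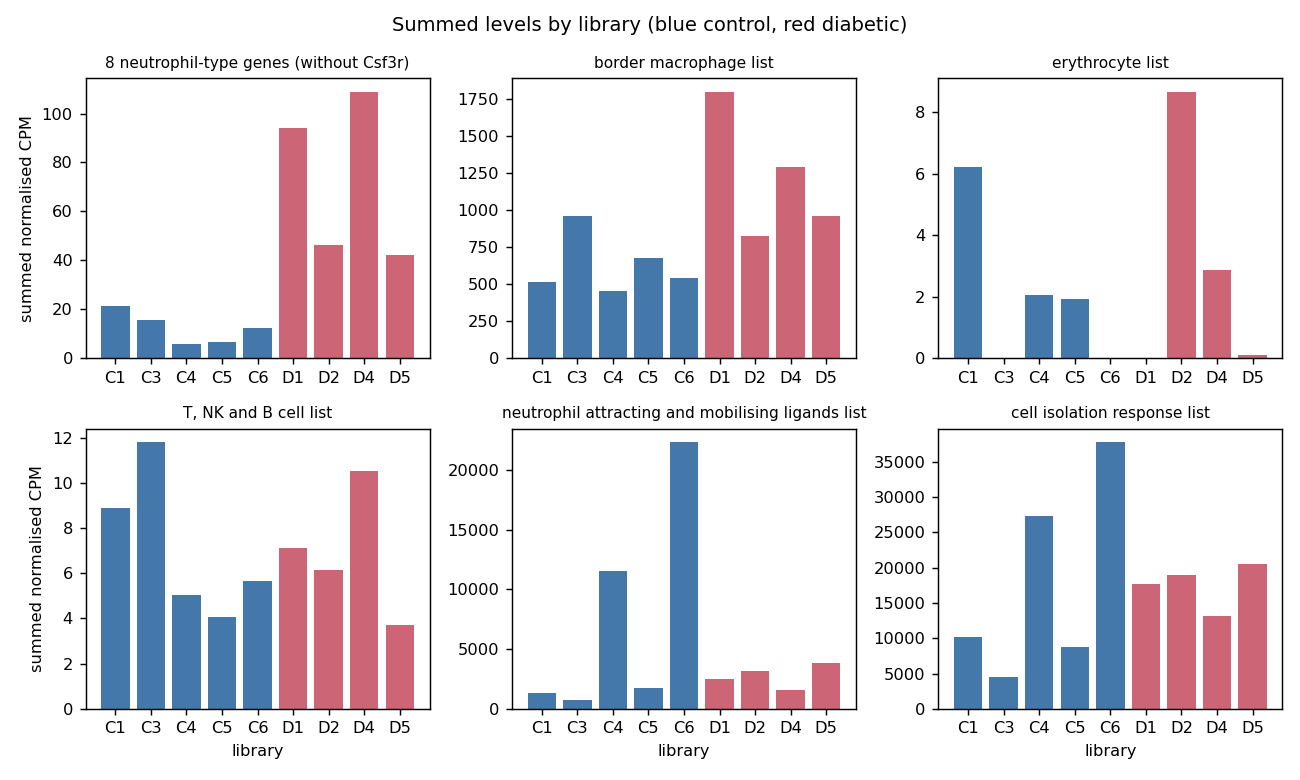
Summed normalised CPM (y axes, linear from 0, separate scales) by library (x axis) for the 8 chosen genes without Csf3r and for 5 marker lists, with control libraries in blue and diabetic in red. The 8 genes are highest in diabetic 4 and 1 (109 and 94.3 CPM), the border macrophage list in diabetic 1 and 4, the erythrocyte list in diabetic 2, and the ligand and isolation lists in control 6.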

How the data were processed

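Gene counts, raw and per symbol, were deposited by the authors with 1 column per library. The submitters' processing notes name TopHat2 2.0.14, StringTie 1.2.4, edgeR and the build Rnor_6.0, while the counting program, and whether it used strand, is not given in the sources used here, so reads of overlapping, antisense or near-identical genes cannot be told apart. The authors' deposited table gives log2 fold changes and p-values, and the assemblies hold TPM. Genes were filtered with filterByExpr (minimum count 10, minimum total 15), scaled by TMM and tested on all 9 libraries with the edgeR 4.0.16 quasi-likelihood test in R 4.3.3 without covariates, with Benjamini-Hochberg adjustment over 11748 genes and a threshold of 0.05. Each standard error (SE) was derived from a log2 fold change and the two-sided p-value belonging to it under a normal distribution. Correlations used log2 CPM with a prior count of 2. Alternatives were DESeq2 1.42.0, limma 3.58.1 (voom, and log2(TPM + 1) of genes above 0 in 4 libraries), other scalings, no filter, a replicate block and leaving out each library. The script was tested on simulated counts. The 9 genes and all lists were chosen with earlier results of these data known. Genes named are the 9, the 3 most abundant and any called gene of each list, the 5 most like S100a9 by each measure, and Mpo, Elane, Camp, Ltf, Ngp, Lcn2, Mmp9, Cxcr1, Fpr1, Retnlg and Il1r2 whatever their values. Other genes were named after their values were seen. A few genes that this rule names are not reported here.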

Additional observations from a re-analysis of the deposited data

Results flagged for a closer look

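A library far from the others of its group was looked for by Dixon's test in 32 groups of values. These were the control and the diabetic libraries of the 9 genes and of 7 other neutrophil genes. The test flags about 1 in 20 groups of continuous values by chance. A group with 1 library above 0 is always flagged, as for Camp and Fpr1 below, so the number flagged is not set against that rate. It marked 6. Trem1 was at 5.80 CPM in control 6, against 2.64 CPM in the next control, and Il1r2 at 12.1 CPM in the same library, against 4.51 CPM. Retnlg was at 1.23 CPM in control 1, against 0.347 CPM in the next control, and at 4.14 CPM in diabetic 4, against 0.888 CPM in the next diabetic library. Camp was at 0.107 CPM in control 4 (1 count) and Fpr1 at 0.520 CPM in control 3 (6 counts), with 0 counts in each other control.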

How the results depend on the processing

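The count of genes past the threshold moved most: 8 by edgeR's quasi-likelihood test (62.5% higher), 29 without normalization factors (96.6% higher), 31 with upper-quartile factors (87.1% higher), 42 without a filter (69.0% higher), 583 by DESeq2 (47.2% higher) and 4 by limma-voom. Leaving out 1 library gave 0 to 75 genes, with 75 without control 1, 2 without diabetic 2, 1 without control 3 or 5, and 0 without control 4, diabetic 1 or diabetic 4 (1687, 1792 and 1528 at an unadjusted p below 0.05). The list genes past the threshold numbered 0, and 3 without factors or with upper-quartile factors, 4 without a filter and 15 by DESeq2. At an unadjusted p below 0.05 by edgeR's test, added after the data were seen, they numbered 33, against 18.9% of all genes. They numbered 0 to 2 when a library was left out, the 2 arising without control 1 or diabetic 2. With the replicate block 0 genes passed, 1129 at an unadjusted p below 0.05, and same-numbered libraries correlated by 0.20, -0.11 and 0.016, so the numbers were not taken as pairs. Without controls 4 and 6, added after the data were seen, 0 genes passed (1776 at an unadjusted p below 0.05) and 0 list genes did. The median of the ligand list turned from -0.94 to 0.99 in that setting, and the median over the 9 genes was 1.80. Of the 9 genes, Fcnb passed without factors, with upper-quartile factors and without a filter, S100a8, Fcnb and G0s2 without control 1, and S100a8, S100a9, Trem1, Fcnb and G0s2 by DESeq2. The log2 fold changes of the 9 genes kept their direction in 136 of 136 results under alternatives, and 133 moved by less than the spread between libraries. The exceptions were S100a8 without control 1 (5.44), S100a9 on TPM (1.45) and Csf3r without factors (-0.081). The TPM fit used reference transcripts alone, so S100a9 entered it as 0 in diabetic 4 and control 1. Summed over the locus, S100a9 was at 103 and 11.7 TPM in these libraries. For S100a8 and Csf3r the cause was not tested. The median over the 9 genes ran from 1.76 without diabetic 4 to 2.53 without control 1 and was 2.04 without Csf3r. On TPM only S100a9 was tested of the 9, so neither the median nor the count of separated genes was computed there. Low counts limit S100a8 (0 to 64 in a library) and Cxcr2 (0 to 34).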

Other observations

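Cytotoxic lymphocyte genes were read unevenly, and not in 1 library alone. Prf1, which encodes perforin, had 32 counts in control 1, 2 in diabetic 1 and 0 in each other library, and Gzmb, which encodes granzyme B, had 11, 2 and 0 in the same libraries. Cd8a and Cd8b, the chains of CD8, had 87 and 13 counts in control 3 and 7 and 0 in control 1. Control 1 was also the control with the highest S100a9, and it had 52 counts of the haemoglobin gene Hba1. Diabetic 2 had the most counts of Hba1 (68) and the fewest of S100a8 among the diabetic libraries (14). Arg1, which encodes arginase 1, had 31 counts in diabetic 1, where Camp was highest too, and 0 to 9 counts in each other library.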
